A study of Arabidopsis thaliana with 76 samples.

Results

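RNA from whole Arabidopsis seedlings was sequenced around short days of 8 h light and 16 h dark, and 150 genes with a strong night peak are described here. They were chosen from a WT (ecotype Col0) time course with 1 library at each of 8 time points at constant 22°C and at 27°C. A gene was kept when its highest TPM (a transcript level scaled by gene length and library size) fell at ZT16 or ZT−4 at both temperatures and reached at least 10 at each. ZT counts hours from lights on, so that ZT16 lies in the middle of the dark period and ZT−4 lies 4 h before dawn. Of 33557 genes in the table, 1054 met this rule, and the 150 with the largest ratio of highest to lowest TPM + 1 at 22°C were taken as members.

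Values that did not choose the members came from 60 further libraries with read counts, 2 per group. They were WT and seedlings labelled ss4-1 (deficient in STARCH SYNTHASE 4, which starts starch granules) at 17°C and the same 8 time points, and WT, pgm (plastidial phosphoglucomutase, without which leaves make almost no starch), ss3/ss4, and ss3/ss4/pgm at 17°C at ZT0 and ZT2. They also included WT grown in liquid media at 22°C or 27°C, untreated or given ethanol (mock), 30 µM DCMU, or 50 µM DBMIB at ZT−1, and sampled at ZT1. All lines were in Col0, each library was made from a pool of 8-day-old seedlings, and the ZT0 and ZT2 WT libraries at 17°C served both the time course and the comparison with the starch mutants. Totals were 3204754 to 19679912 counts per library, and the depth of the 22°C and 27°C series is unknown. No label says that replicates came from separate cultures, so that p-values measure the spread between these samples. The transcript of SS4 did not separate the libraries labelled ss4-1 from WT, as both held 44.0 to 189 CPM (read counts scaled to library size with TMM), and it was not lowered in ss3/ss4. The transcripts of PGM and SS3 were low where the labels name those mutations. Shoot markers (RBCS1A, LHCB1.1) and root markers (PYK10, SCR, WER) were present in every library at 17°C, and in such bulk samples fewer cells of a type and less RNA per cell cannot be told apart.

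Night is the time when a seedling lives on the starch stored during the day, and in many plants the transcripts that peak then follow the circadian clock, the absence of light, and the falling sugar supply. The clock is a loop of transcription factors in which MYB-like proteins act around dawn and the evening complex, of which ELF3 is the scaffold, acts in the dark. The evening element and the CCA1-binding site are short DNA words bound by the MYB-like clock proteins, and the G-box is bound by basic helix-loop-helix and bZIP factors. Several members have other known roles. BT2 is a BTB and TAZ domain protein that rises when sugar is short, NIA1 is a nitrate reductase, UPM1 makes the siroheme precursor for nitrite reduction, and FRO2 and IRT1 reduce and take up iron at the root surface.

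The 250 bases before the RefSeq start were read from the TAIR10.1 genome for the 149 members with an entry, and 6 words known from day-night regulation were searched on both strands. RVE2 is shown because it had a large night amplitude in all 4 day courses (WT at 3 temperatures and ss4-1), and its upstream stretch, chr5:14753089-14753338 on the minus strand, holds a CCA1-binding site (AAAAATCT) and a G-box (CACGTG), in capitals. AT3G13610 (chr3:4449009-4449258, plus strand), THIC (chr2:12666685-12666934, plus strand), and PRH75 (chr5:24984045-24984294, minus strand) are shown because they hold the evening element AAAATATCT, and the last 2 were chosen after their sequences were seen. In PRH75 the capitals mark the word as its reverse complement, in 2 places.
RVE2: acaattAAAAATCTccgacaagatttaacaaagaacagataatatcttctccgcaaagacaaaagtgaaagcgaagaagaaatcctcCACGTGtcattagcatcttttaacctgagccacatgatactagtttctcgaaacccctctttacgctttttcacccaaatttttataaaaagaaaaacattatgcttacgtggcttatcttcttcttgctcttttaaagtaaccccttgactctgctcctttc
AT3G13610: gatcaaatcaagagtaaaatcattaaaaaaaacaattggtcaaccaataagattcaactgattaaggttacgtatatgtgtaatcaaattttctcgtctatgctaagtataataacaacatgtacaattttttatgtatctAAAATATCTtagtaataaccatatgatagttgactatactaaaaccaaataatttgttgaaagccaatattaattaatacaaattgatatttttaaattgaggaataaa
THIC: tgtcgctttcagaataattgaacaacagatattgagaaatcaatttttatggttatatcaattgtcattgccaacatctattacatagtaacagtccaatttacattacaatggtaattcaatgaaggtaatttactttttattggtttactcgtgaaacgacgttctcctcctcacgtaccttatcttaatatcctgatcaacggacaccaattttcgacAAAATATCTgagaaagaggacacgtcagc
PRH75: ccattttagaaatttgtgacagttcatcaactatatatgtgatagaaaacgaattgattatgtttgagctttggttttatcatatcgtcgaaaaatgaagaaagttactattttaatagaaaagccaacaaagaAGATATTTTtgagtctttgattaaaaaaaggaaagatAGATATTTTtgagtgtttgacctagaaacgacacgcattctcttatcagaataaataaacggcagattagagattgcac
The evening element was in 4 of 149 members (2.685%), AT4G24015 being the one not shown, and in 2.216% of the 32809 genes with such a stretch. The CCA1-binding site was in 6.711% of members and 6.273% of genes. For the other words the shares were 4.027% against 5.822% (G-box), 3.356% against 7.681% (telo-box AAACCCT), 4.027% against 6.395% (protein box ATGGGCC), and 6.711% against 9.894% (starch box AAGCCC). No word was thus held by more than 10 members, and the shares of the clock words lay near those of all genes.

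At 22°C and 27°C the members' day course is a description, as it chose them. At 22°C 85 members were highest at ZT16 and 65 at ZT−4, at 27°C the counts were 99 and 51, and 108 had the same peak time at both. The lowest level fell in the light for 139 of 150, at ZT1 for 60. The median log2 ratio of highest to lowest TPM + 1 was 2.38 at 22°C and 2.23 at 27°C, and the 22°C value was the larger for 101 members. The cut to 150 used the ratio at 22°C alone, which favors a larger value there, so that no temperature effect on the ratio can be read from this. At the end of the light (ZT8) the 27°C value was the higher for 109 members (median log2 difference 0.21), the most of the 8 times. It was the higher for 81 before dawn (ZT−4, median 0.02) and for 83 to 97 at the remaining times. Such counts over all genes are not given here. A general difference between the 2 courses thus cannot be told from one of the members. With 1 library per point these differences have no replicate check.

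BT2 had the largest ratio at 22°C (149). Its TPM at 22°C was 2.73 at ZT1, 11.2 at ZT2, 6.27 at ZT4, 39.5 at ZT8, 368 at ZT12, 436 at ZT16, 555 at ZT−4, and 493 at ZT0. The transcript was therefore high through the whole night and at dawn, and low 1 h after lights on. RVE2, a MYB-like protein of the clock family, had TPM of 13.1, 8.89, 7.19, 28.2, 117, 410, 759, and 143 at the same times, a sharp peak late in the night. BBX14, a B-box transcription factor with a CCT domain, had 3.48, 50.1, 47.3, 49.8, 159, 228, 212, and 191, and ACHT5, an atypical thioredoxin, had 1.24, 17.7, 14.1, 20.9, 58.8, 80.3, 60.2, and 23.8. Both had their lowest value at ZT1 and were above 14 at ZT2 to ZT8.

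The 10 largest ratios included those of IRT1, FRO2, and CYP82C4, genes known to be induced by iron shortage. IRT1 had 23.99, 74.98, 32.3, 16.5, 204, 512, 141, and 24.9 TPM from ZT1 to ZT0 at 22°C, so that the peak stood at ZT16 and a smaller rise at ZT2. At ZT−4 IRT1 had 28.8 TPM at 27°C and 141 at 22°C, and FRO2 had 7.12 and 61.5. CYP82C4, a cytochrome P450 of the coumarin pathway, was at 307 TPM at ZT16 at 22°C and 129 at 27°C, and AT3G12900, a 2-oxoglutarate and Fe(II)-dependent oxygenase, at 64.2 and 18.1. At 22°C these 4 genes were thus highest at ZT16, where BT2 and RVE2 were highest at ZT−4. Of the 10 ratios 3 are taken over a value listed at 0. AT3G12900 was listed at 0 at ZT4 and ZT8 at 22°C. ATCG00080, on the plastid genome, was listed at 118 TPM at ZT−4 and at 0 at every other time at 22°C, and AT5G13980, a glycosyl hydrolase, was listed at 0 at ZT12 at 22°C, at 18.2 to 72.0 at the other times, and at 74.0 at ZT12 at 27°C. Just inside the limit of 150 genes stood SPPL2 (ratio 3.71) and EMB1865 (3.68), and just outside sks9 (3.68) and AT2G37200 (3.67).

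**Figure D1:**
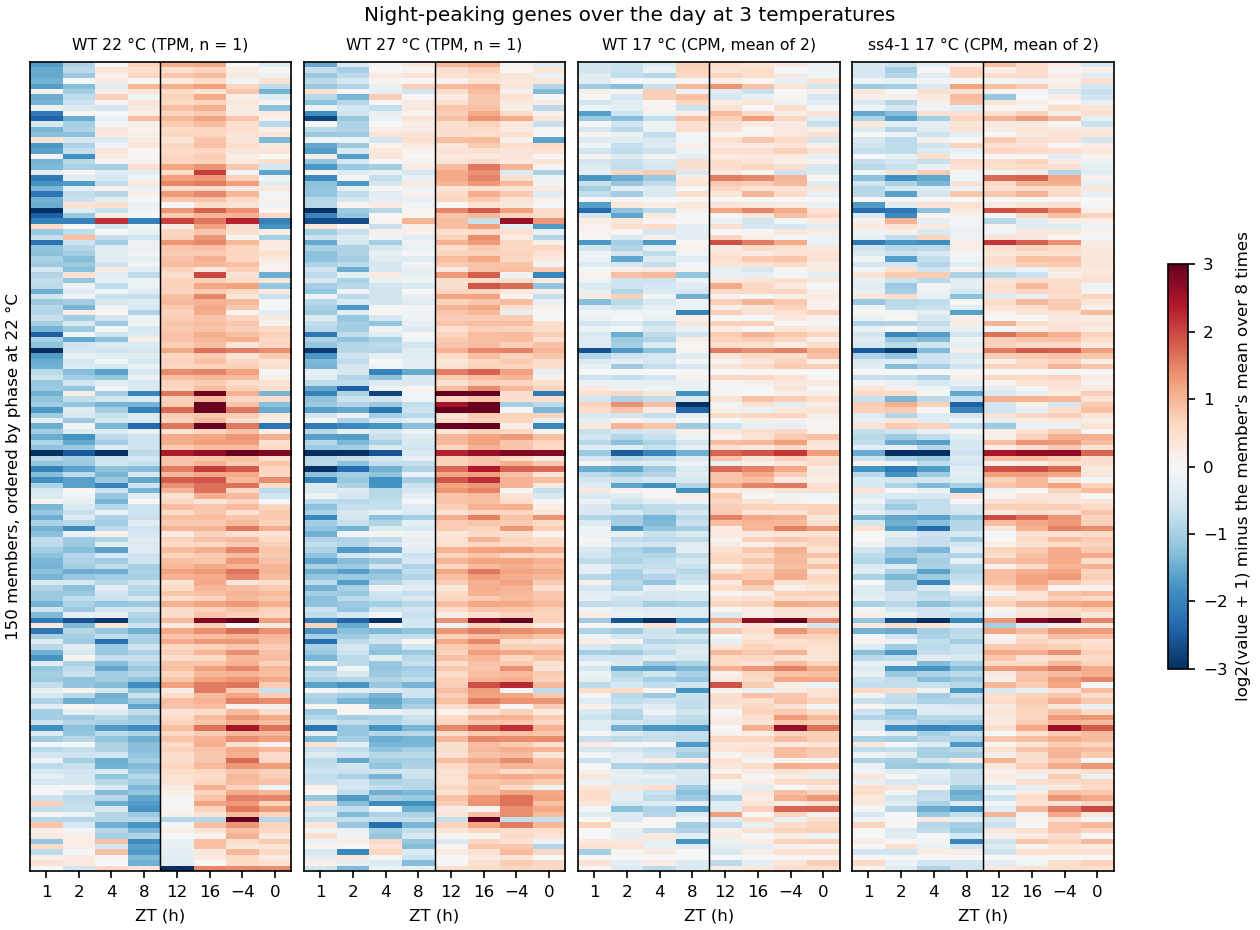
Heat map of the 150 members (rows, ordered by phase at 22°C) over the 8 time points (columns, from ZT1 in the light to ZT0 at the end of the dark) in 4 panels, WT at 22°C and 27°C (log2(TPM + 1), 1 library per point) and WT and ss4-1 at 17°C (log2(CPM + 1), mean of 2 libraries), each row relative to its own mean over the times. Most rows are below their mean in the light columns and above it in the dark columns in all 4 panels, and at 22°C 139 of the 150 have their lowest level in the light.

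The night pattern was then tested in the 17°C libraries, which the choice did not use. The test set the mean log2 level at ZT16 and ZT−4 (4 libraries) against that at ZT1, ZT2, ZT4, and ZT8 (8 libraries), with edgeR, over 20692 genes, of which 147 were members. In WT 120 members were higher at night at an adjusted p under 0.05 (81.6%), where 23.8% of all genes were, and 4 were lower, where 23.4% were. The median log2 difference was 1.03 for members and −0.01 for all genes. The 4 night libraries lay above all 8 light libraries for 85 members, against 9.35% of all genes, and below them for 0, against 6.63%. In ss4-1 125 members were higher (26.0% of all genes) and 4 lower (26.7%), with a median of 1.19, and 94 had night libraries above every light library (10.8% of all genes) and 0 below (8.81%). The 4 lower members were CYP82C4, AT4G30097, PP2-A8 (a phloem protein), and AT4G11210 (a dirigent-like protein) in WT, with AT3G13610 in place of AT4G30097 in ss4-1, and all but CYP82C4 and AT3G13610 are named after their values were seen. Of the 10 members with the largest ratios at 22°C, ATCG00080, AT3G12900, FRO2, and IRT1 passed the test in neither direction. The members AT5G66053, AT5G07152, and AT1G26220 did not enter this fit. They had 0 counts in all of its 32 libraries, although the TPM table lists them at 26.3 to 234, 2.44 to 15.8, and 17.5 to 67.95 at 22°C.

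RVE2 had the largest difference of the members. In WT its 2 libraries had 25.5 and 26.7 CPM at ZT1, 7.81 and 9.13 at ZT2, 4.76 and 3.98 at ZT4, 14.4 and 14.4 at ZT8, 118 and 130 at ZT12, 340 and 376 at ZT16, 738 and 745 at ZT−4, and 145 and 165 at ZT0. All dark libraries thus lay above all light libraries. The night against light difference was 5.56 on the log2 scale (SE 0.092, adjusted p = 6.1e-24) in WT and 5.68 (SE 0.094, adjusted p = 5.0e-24) in ss4-1.

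BT2 in WT had 72.3 and 45.9 CPM at ZT1, 17.5 and 26.9 at ZT2, 27.1 and 36.7 at ZT4, 49.1 and 43.5 at ZT8, 465 and 398 at ZT12, 483 and 475 at ZT16, 580 and 558 at ZT−4, and 322 and 292 at ZT0. The light and dark libraries did not overlap, and the difference was 3.80 (SE 0.17, adjusted p = 4.8e-15). AT1G49200, a RING/U-box protein, had 0.447 to 3.93 CPM in the 8 light libraries, 9.97 and 13.7 at ZT16, and 34.9 and 37.7 at ZT−4, a difference of 4.00 (SE 0.17). AT4G34790, a SAUR-like gene of the auxin response family, was near the limit of detection, with at most 0.236 CPM in the light, 2.21 and 1.61 at ZT16, and 0.909 and 0.951 at ZT−4, and its difference of 4.58 (SE 0.62) carries that depth.

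Among the B-box and CCT genes, BBX14 had 16.9 and 15.03 CPM at ZT1, 31.4 and 31.1 at ZT2, 44.7 and 42.0 at ZT4, 108 and 114 at ZT8, 232 and 381 at ZT12, 281 and 266 at ZT16, 286 and 303 at ZT−4, and 199 and 216 at ZT0. Its level climbed through the day, and the night libraries stood above all light libraries (2.85, SE 0.10, adjusted p = 3.4e-17). BBX17 (3.02), CIL (1.30), AT5G14370 (1.02), and BBX15 (0.52), named after their values were seen apart from BBX15, were also higher at night. BBX15 had WT means of 33.1 CPM at ZT1, 137 at ZT8, and 129 at ZT−4, and CIL had 8.58, 22.2, and 22.8. Both were thus already up by the end of the light. ACHT5 rose from 2.99 and 1.83 CPM at ZT1 to 49.7 and 42.2 at ZT16 (2.52, SE 0.11). ELF3 had 25.7 to 41.4 CPM in the libraries of ZT1, ZT2, and ZT4, 81.8 and 80.1 at ZT8, 99.0 and 107 at ZT16, 124 and 116 at ZT−4, and 53.0 and 39.7 at ZT0, so that its level had already come up by the end of the light and was down at dawn (1.44, SE 0.093).

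NIA1 and UPM1 serve nitrate reduction. NIA1 had 307 and 224 CPM at ZT1, 86.2 and 85.7 at ZT2, 122 and 130 at ZT4, 158 and 129 at ZT8, 403 and 286 at ZT12, 546 and 616 at ZT16, 787 and 873 at ZT−4, and 790 and 631 at ZT0. All 4 night libraries were above all light libraries, by 2.28 on the log2 scale (SE 0.12, adjusted p = 1.3e-13), and ZT1 stood between dawn and the rest of the day. UPM1 (1.59) was also higher at night in WT. So were ACR9, an ACT domain protein (1.87), and, named after their values were seen, LBD39, a LOB domain regulator of nitrogen responses (1.25), HEMA2, a glutamyl-tRNA reductase of tetrapyrrole synthesis (1.22), THIC, of thiamin synthesis (1.16), and SUC2, the phloem sucrose transporter (0.54). In ss4-1 the same 7 genes, NIA1 included, were higher by 0.57 to 2.38. These differences average over the 4 light times. For THIC the mean at ZT8, in the light, was above that at ZT−4, with 444 against 302 CPM in WT and 553 against 275 in ss4-1. SUC2 had 120 CPM at ZT8 and 132 at ZT−4 in WT, and 154 and 103 in ss4-1.

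**Figure D2:**
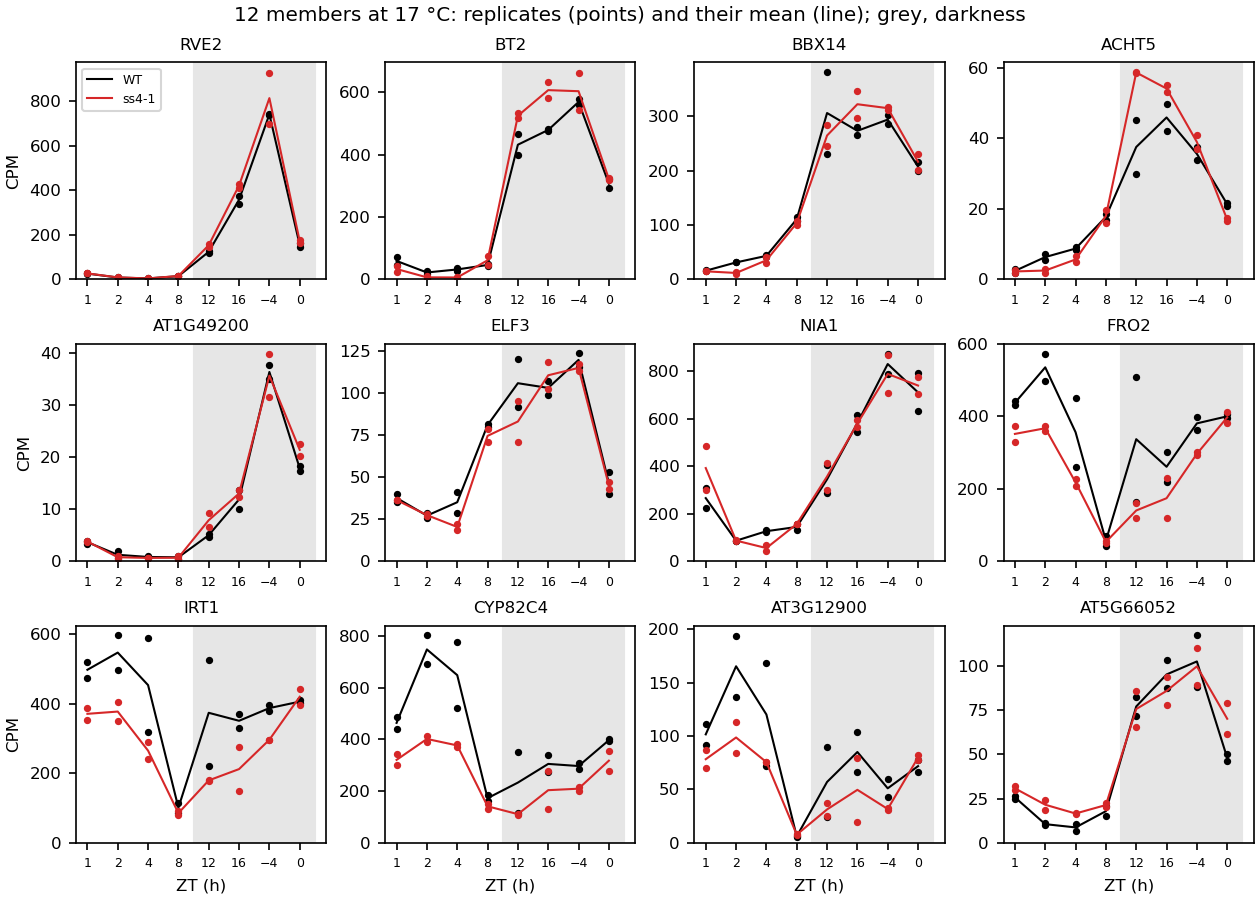
CPM of 12 members at 17°C over the 8 time points (ZT in h, darkness in grey) in WT and ss4-1, with a point for each of 2 libraries and a line through their mean. RVE2 reaches 738 and 745 CPM at ZT−4 in WT, while FRO2, IRT1, CYP82C4, and AT3G12900 have higher WT levels at ZT2 than at ZT16.

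The iron genes did not keep their night peak at 17°C. FRO2 in WT had 443 and 432 CPM at ZT1, 574 and 498 at ZT2, 261 and 452 at ZT4, 70.0 and 42.5 at ZT8, 165 and 509 at ZT12, 220 and 302 at ZT16, 398 and 364 at ZT−4, and 406 and 395 at ZT0. The night libraries lay inside the range of the light libraries, and the difference of 0.27 did not pass the test (adjusted p = 0.29). IRT1 had 496 to 599 CPM at ZT2, 86.7 to 116 at ZT8, 331 and 371 at ZT16, and 395 and 380 at ZT−4 (0.14, adjusted p = 0.52). CYP82C4 was lower at night, with 806 and 692 CPM at ZT2, 273 and 338 at ZT16, and 307 and 287 at ZT−4 (−0.56, SE 0.19, adjusted p = 0.020), a call lost without WT ZT16 replicate 1 or ZT−4 replicate 2. AT3G12900 (0.17, adjusted p = 0.67), AT3G13610, another such oxygenase (−0.43, adjusted p = 0.083), and GSTL1, a glutathione transferase (−0.36, adjusted p = 0.26), did not pass. From ZT0 to ZT2 AT3G12900 (1.20), GSTL1 (1.17), AT3G13610 (1.09), and CYP82C4 (0.91) rose, and at most 1 of the members' rises passed with a library left out. ATCG00080 stayed between 1.1 and 6.8 CPM in WT with no night peak (0.42, adjusted p = 0.27). Between the 17°C and the warmer day courses, temperature and the library series cannot be told apart.

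The time of the highest CPM over the 8 points was taken in each series of replicates. It was ZT16 or ZT−4 for 79 of 147 members in WT replicate 1 (53.74%, against 19.3% of all genes tested) and for 75 in WT replicate 2 (51.02%, against 15.3%). In ss4-1 it was so for 71 members (48.3%, against 15.3%) and 84 members (57.14%, against 19.5%). In WT replicate 1 55 members peaked at ZT−4, 24 at ZT16, 27 at ZT0, and 18 at ZT12, so that most of the others peaked at the remaining dark samplings. All dark times together held 84.35 to 87.76% of members and 44.38 to 48.3% of all genes.

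A cosine of 24 h fitted to log2(CPM + 1) gave a median phase of the members of 17.5 and 17.2 h after lights on in the WT replicates and 17.4 and 17.7 h in ss4-1. From TPM it was 16.6 h at 22°C and 16.4 h at 27°C. For all genes tested the median phase was 17.7 and 18.1 h in WT and 17.9 and 18.1 h in ss4-1 at 17°C, 15.7 h at 22°C, and 16.2 h at 27°C, so that this median was also later at 17°C. The phases of all genes were widely spread, with quartiles of 11.6 and 23.8 h in WT replicate 1, against 15.8 and 19.0 h for members. Their median is thus a weak summary. The median phase of ss4-1 less that of WT, member by member, was −0.21 h in replicate 1 and 0.07 h in replicate 2, while replicate 2 less replicate 1 was 0.11 h in WT and 0.24 h in ss4-1. Members over 3 h apart numbered 8 and 14 between the genotypes, 15 between the WT replicates, and 3 between the ss4-1 replicates. Member by member, WT at 17°C was later than WT at 22°C by a median of 0.53 h, with 26 of 147 members over 3 h apart. The median log2 amplitude of the cosine was 1.502 and 1.40 in WT, 1.74 and 1.61 in ss4-1, and 2.104 at 22°C, where amplitude chose the members. For all genes it was 0.556 and 0.559 in WT, 0.637 and 0.616 in ss4-1, and 0.654 at 22°C, so that at 17°C it was the higher in ss4-1 for all genes as well as for members.

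**Figure D3:**
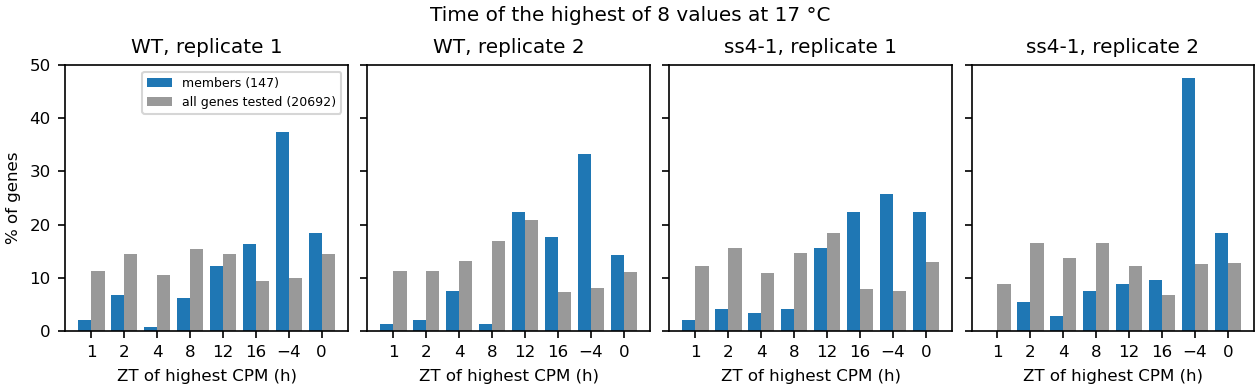
Percent of genes (y axis) by the time point of their highest CPM (x axis, ZT in h) for the 147 members tested and all 20692 genes, in each of the 4 replicate series at 17°C. ZT16 and ZT−4 together hold 48.3 to 57.14% of members and 15.3 to 19.5% of all genes.

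Within the night some members differed between ZT16 and ZT−4. From ZT16 to ZT−4 in WT 19 members rose, where 4.62% of all genes did, and 4 fell, where 2.36% did. RVE2 rose from 340 and 376 to 738 and 745 CPM (1.05, adjusted p = 7.0e-06), AT1G49200 by 1.61, and AT5G26200, a mitochondrial carrier, from 7.67 and 8.80 to 17.3 and 19.3 CPM (1.15). AT1G75190, an uncharacterized protein, fell from 16.8 and 17.3 to 10.1 and 11.2 CPM (−0.67), AT5G12950 by 0.60, LOL1, a zinc finger protein, by 0.59, and EXL3, named after its value was seen, by 0.55. With 1 of the 4 libraries left out 7 to 14 members rose and 0 or 1 fell.

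In the last 4 h of darkness, from ZT−4 to ZT0, 22 members fell, where 2.02% of all genes did, and 1 rose, AT4G26540, a receptor-like kinase (17.6 and 14.96 to 24.2 and 27.0 CPM, 0.65), where 2.11% did. RVE2 fell to 145 and 165 CPM (−2.26), ELF3 to 53.0 and 39.7 (−1.37), and AT5G11070, an uncharacterized protein, from 50.7 and 56.1 to 17.9 and 23.8 (−1.35). These falls came before lights on. BT2 was at 322 and 292 CPM at ZT0 (adjusted p = 0.074) and NIA1 at 790 and 631 (adjusted p = 0.71), and neither fall passed the test. Leaving out a library left 10 to 15 falls and 0 rises.

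Between ZT0 and ZT2, with 2 h of light, 101 members fell and 6 rose, where 15.9% of all genes fell and 15.9% rose. RVE2 fell by 4.18, BT2 by 3.77, AT1G49200 by 3.72, and NIA1 by 3.05 on the log2 scale. AT4G34790 had no count in either ZT2 library and was at least 4.74-fold lower than at ZT0, against a limit of 3 counts over the group. With a library left out 91 to 93 members fell and at most 1 rose.

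The night against light difference was compared between the genotypes. It was larger in ss4-1 for 8 members, where 0.391% of all genes were so called, and smaller for 1, where 0.396% were (0.788% in either direction). The value of ss4-1 less WT was above 0 for 123 of 147 members, with a median of 0.22 beside −0.01 for all genes. The share above 0 among other genes that are high at night is not given here, so that this sign cannot be read as particular to the members. BT2 differed most, with a night against light difference of 5.20 in ss4-1 and 3.80 in WT, that is 1.39 more (SE 0.27, adjusted p = 0.0090). In the light BT2 had 10.3 and 2.75 CPM in ss4-1 at ZT2 against 17.5 and 26.9 in WT, and 8.80 and 3.51 at ZT4 against 27.1 and 36.7. At night it had 632 and 581 CPM in ss4-1 at ZT16 against 483 and 475 in WT, and 543 and 663 at ZT−4 against 580 and 558. Mean CPM at the other light times was 33.3 in ss4-1 and 59.1 in WT at ZT1, and 61.15 and 46.3 at ZT8, where ss4-1 was the higher. The libraries of the genotypes did not overlap at ZT1, ZT2, ZT4, and ZT16 and overlapped at ZT8 and ZT−4. The call for BT2 held with any of the 24 libraries left out.

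BBX14 differed by 0.65 (adjusted p = 0.033). At ZT2 it had 14.2 and 9.51 CPM in ss4-1 and 31.4 and 31.1 in WT, and at ZT16 348 and 298 against 281 and 266. ACHT5 differed by 0.74 (adjusted p = 0.048), with 3.08 and 1.95 CPM against 5.40 and 7.27 at ZT2. Both were thus lower in the light in ss4-1 at ZT2, without overlap. AT2G07180, a protein kinase, differed by 0.47 (adjusted p = 0.014) and was instead higher at night, with 126 and 108 CPM in ss4-1 and 78.4 and 74.98 in WT at ZT16. UVR3, a DNA photolyase (0.60), AT3G23880, an F-box protein (0.89), TOPP1, a protein phosphatase (0.43), and AT3G56680, an R3H domain protein (0.43), made up the rest of the larger differences. AT5G66052, an uncharacterized protein, had the smaller one (−0.72, adjusted p = 0.035), with 18.8 and 24.3 CPM in ss4-1 at ZT2 against 9.94 and 11.2 in WT. Of the members 43 overlap another annotated gene, 40 of them on the other strand, among them AT5G66052, BBX14, ACHT5, AT3G56680, ELF3, UPM1, and AT1G49200, and how strand entered the counting is not given in the sources used here. The microRNA gene MIR850, named below, overlaps AT4G13495 by 221 bases on the same strand, so that strand cannot assign the reads of that stretch to MIR850.

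Over leave-outs of a library the number of members called for this difference was 1 to 12, with 1 without ss4-1 ZT16 replicate 1 and 2 without WT ZT−4 replicate 2, WT ZT16 replicate 2, or ss4-1 ZT−4 replicate 2. It was 0 with all 6 other time points as the reference. A test of any genotype by time difference over the 8 points called 5 members, where 0.604% of all genes passed, 10 by DESeq2, 47 with no filter on low counts, and 2 to 32 with a library left out (32 without WT ZT12 replicate 1). For the night against light difference between the genotypes, BBX14 kept its call in 9 of the 24 leave-outs, ACHT5 in 8, and AT5G66052 in 6.

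At single time points few members differed between ss4-1 and WT. In edgeR 0 members differed by adjusted p at ZT−4 (0.0483% of all genes), ZT0 (0.0290%), ZT1 (0.0532%), and ZT8 (0.00967%). At an unadjusted p under 0.05 the counts there were 25 higher and 1 lower, 26 and 1, 3 and 6, and 3 and 4. By DESeq2 0, 1, 0, and 0 members differed. Shares of all genes are not given here for the unadjusted p or for DESeq2, so that these counts cannot be set against the percentages above. In edgeR differences passed for 5 members at ZT2 (0.532% of all genes), 8 at ZT4 (5.42%), 4 at ZT12 (2.99%), and 1 at ZT16 (0.0193%). At least once 15 members differed (10.2%, against 8.29% of all genes). BT2 was lower in ss4-1 at ZT2 (−1.87, adjusted p = 0.025) and ZT4 (−2.45, adjusted p = 0.0021), and NIA1 at ZT4, with 66.4 and 43.5 CPM against 122 and 130 (−1.21, adjusted p = 0.0044). RXF12, a glycosyl hydrolase (−1.45), was also lower at ZT4, AT5G66052 was higher at ZT2 (1.03) and ZT4 (0.98), and MIR850 was lower at ZT2 (−0.99).

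These counts moved with single libraries. At ZT2 0 differences were left without ss4-1 replicate 2 and 1 without WT replicate 2, and at ZT4 0 and 2 were left and 16 without WT replicate 1. At ZT12 FRO2 had 165 and 509 CPM in WT and 120 and 160 in ss4-1, and IRT1 222 and 526 against 177 and 182, so that WT replicate 1 was near ss4-1 and replicate 2 was not. Without that replicate 1 of WT the count at ZT12 was 58, and it was 0 without any other library of that time. The WT pair at ZT12 differed by 23.1 in chi-square per degree of freedom, where the other WT and ss4-1 pairs differed by 2.75 to 11.6. NIMIN-3 (0.85) and ACHT5 (0.64) were higher in ss4-1 at ZT12 with all libraries.

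In the starch mutants most members differed from WT at ZT0, the end of the night. Of 146 tested, 70 were higher and 41 lower in pgm, where 28.1% and 28.9% of all genes were, 75 and 37 in ss3/ss4 (30.4% and 28.1%), and 72 and 42 in ss3/ss4/pgm (30.6% and 30.7%). The medians were 0.32, 0.38, and 0.38, beside −0.07, 0.01, and −0.04 for all genes. At ZT2 37 were higher and 45 lower in pgm (19.4% and 21.0%), 67 and 35 in ss3/ss4 (26.6% and 27.4%), and 32 and 48 in ss3/ss4/pgm (19.7% and 21.7%). The comparisons share their WT libraries, and the labels do not say whether the lines were grown or sequenced together.

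BT2 at ZT0 had 275 and 250 CPM in WT, 922 and 974 in pgm, 889 and 942 in ss3/ss4, and 871 and 923 in ss3/ss4/pgm, so that all 6 mutant libraries stood above WT (1.85, 1.80, and 1.78, adjusted p = 2.2e-05, 2.7e-05, and 2.9e-05). At ZT2 it had 15.3 and 23.4 CPM in WT and 10.5 to 52.7 in the mutants and no difference passed. ACR9 at ZT0 had 246 and 232 CPM in WT against 1475 and 1549, 1152 and 1207, and 1249 and 1287 in the mutants (2.66, 2.30, and 2.41). AT3G07870, an F-box protein, had 23.9 and 24.5 CPM in WT and 89.9 to 127 in the mutants. ELF3 had 45.3 and 34.0 CPM in WT and 86.9 to 107 in the mutants (1.21, 1.23, and 1.43), and RVE2 had 124 and 142 in WT, 202 to 220 in pgm and ss3/ss4/pgm, and 373 and 290 in ss3/ss4 (0.65, 0.67, and 1.32).

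NIA1 went the other way at ZT0 and changed sign by ZT2. It had 675 and 540 CPM in WT at ZT0, 147 and 111 in pgm, 131 and 133 in ss3/ss4, and 89.9 and 108 in ss3/ss4/pgm (−2.22, −2.20, and −2.61, adjusted p = 1.4e-10, 1.2e-10, and 1.2e-11). At ZT2 it had 75.4 and 74.7 CPM in WT, 151 and 149 in pgm, 317 and 332 in ss3/ss4, and 142 and 146 in ss3/ss4/pgm (1.00, 2.11, and 0.94). The level at ZT2 was thus below that at ZT0 in WT and above it in ss3/ss4, a contrast that was not tested. UPM1, which serves the next step of nitrate reduction, was also lower at ZT0, with 178 and 143 CPM in WT and 37.9 to 57.6 in the mutants, and stayed lower at ZT2 (−0.68, −1.02, and −0.71).

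BBX14 and ACHT5 were lower at ZT2 in all 3 mutants. BBX14 had 27.5 and 27.1 CPM in WT, 7.81 and 9.99 in pgm, 15.5 and 15.6 in ss3/ss4, and 11.02 and 11.06 in ss3/ss4/pgm. ACHT5 had 4.72 and 6.34 CPM in WT, 0.166 and 0.595 in pgm, 2.06 and 2.30 in ss3/ss4, and 0.624 and 0.395 in ss3/ss4/pgm (−3.72, −1.39, and −3.34). AT5G66052 was higher at ZT2, with 8.70 and 9.73 CPM in WT, 30.3 to 36.4 in pgm and ss3/ss4/pgm, and 86.1 and 89.7 in ss3/ss4 (1.91, 3.24, and 1.72), and TI2, a trypsin inhibitor, with 2.48 and 2.78 against 10.97 to 18.4. RXF12 at ZT0 had 17.4 and 12.6 CPM in WT and 0.772 to 3.24 in the mutants.

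**Figure D4:**
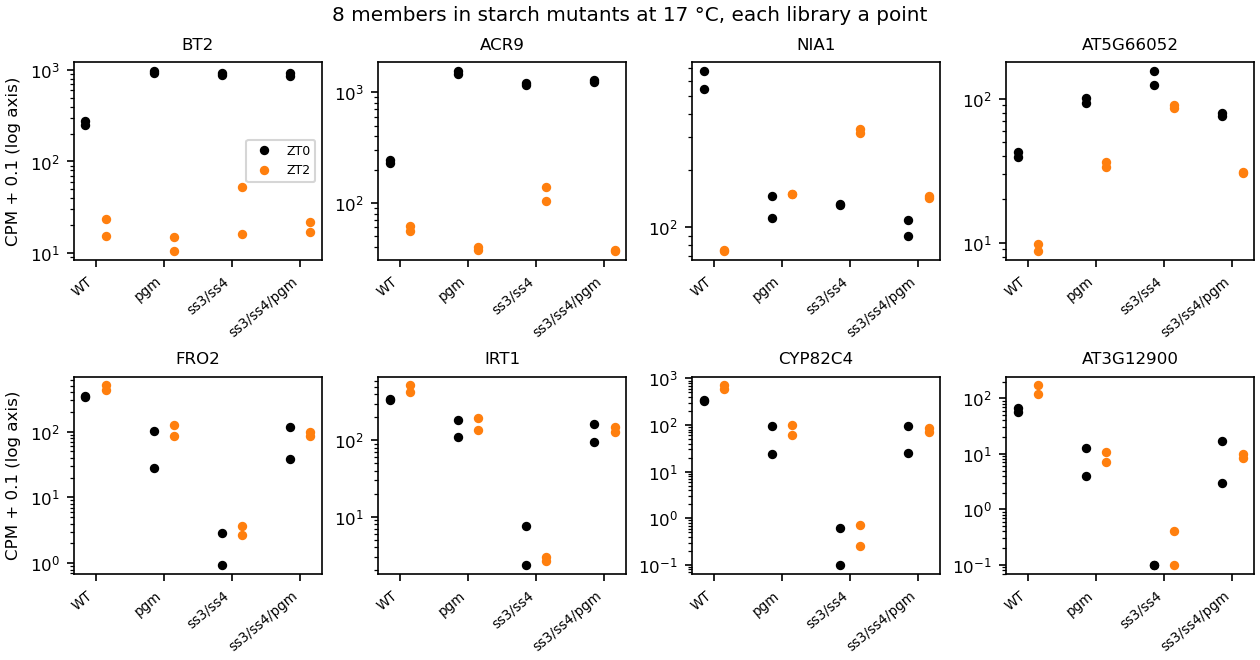
CPM + 0.1 on a log axis of 8 members in WT, pgm, ss3/ss4, and ss3/ss4/pgm at 17°C, with black points for ZT0 and orange points for ZT2 and 1 point per library. BT2 and ACR9 are higher than WT at ZT0 in all 6 mutant libraries, NIA1 is lower at ZT0 and higher at ZT2, and FRO2, IRT1, CYP82C4, and AT3G12900 are lowest in ss3/ss4.

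The iron genes and AT3G12900 were lower in the mutants at both times, with the lowest levels in ss3/ss4. FRO2 at ZT0 had 346 and 338 CPM in WT, 102 and 27.8 in pgm, 2.82 and 0.841 in ss3/ss4, and 117 and 38.6 in ss3/ss4/pgm (−2.28, −7.38, and −2.16). IRT1 at ZT2 had 524 and 432 CPM in WT, 194 and 136 in pgm, 2.52 and 2.91 in ss3/ss4, and 149 and 130 in ss3/ss4/pgm (−1.54, −7.48, and −1.77). CYP82C4 at ZT0 had 336 and 344 CPM in WT, 94.1 and 23.9 in pgm, 0.512 and 0 in ss3/ss4, and 96.2 and 25.6 in ss3/ss4/pgm. For these 3 genes at these times no library of ss3/ss4 overlapped one of pgm or ss3/ss4/pgm, although the difference between the mutants was not tested. AT3G12900 had no count in either ss3/ss4 library at ZT0 and 66.3 and 56.6 CPM in WT, which is at least 386-fold lower against a limit of 3 counts over the group. At ZT0 the 4 root markers summed to 1670 to 1691 CPM in WT and 1134 to 1138 in pgm. In ss3/ss4 they summed to 1203 to 1429, and in ss3/ss4/pgm to 902.6 to 1030. None was at 0, and 2 of 4 were lower by the test in pgm, 2 in ss3/ss4, and 1 in ss3/ss4/pgm. At ZT2 they summed to 1492 to 1579 CPM in WT and 873.4 to 1208 in the mutants. Most of each sum was PYK10, which had 1469 and 1388 CPM in WT at ZT2 and 719.2 to 1103 in the mutants. SCR at ZT2 had 86.3 and 81.1 CPM in WT, 103 to 127 in pgm and ss3/ss4/pgm, and 85.99 and 79.4 in ss3/ss4. WER had 3.975 and 3.631 CPM in WT and 5.73 to 8.01 in the mutants. SHR had 17.9 to 21.3 CPM in WT and mutants. The lower sum at ZT2 was thus that of PYK10 and not of all 4 markers. The 4 shoot markers summed at ZT0 to 8677 to 9293 CPM in WT, 14350 to 23630 in pgm, 8602 to 11630 in ss3/ss4, and 11820 to 13440 in ss3/ss4/pgm, with 3 of 4 higher and 1 lower by the test in pgm, 0 of either in ss3/ss4, and 1 of each in ss3/ss4/pgm. The part of either marker list in the result was not tested. ATCG00080 had 0.994 and 1.85 CPM in WT at ZT2, 59.0 and 57.1 in pgm, 68.8 and 33.2 in ss3/ss4/pgm, and 3.97 and 1.23 in ss3/ss4 (5.25, 5.10, and 0.97, the last with adjusted p = 0.14).

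DCMU stops electrons leaving photosystem II and DBMIB stops them leaving the plastoquinone pool, so that both inhibit photosynthesis. The replicates of the inhibitor labels did not match each other. HSP70, which the study used as its readout, had 409 and 490 CPM in mock at 22°C, 32.4 and 2209 under the label DCMU, and 2584 and 36.7 under the label DBMIB, and chi-square per degree of freedom was 81.9 to 211 for inhibitor pairs and 5.39 to 7.10 for mock and untreated pairs. HSP70, BT2, and UPM1 at 22°C had the higher library in opposite replicates under the DCMU and DBMIB labels. Whether the labels were exchanged in 1 replicate was not tested, and the mean, difference, and adjusted p of each label average libraries that stand apart. Each value is therefore given by label and replicate, and a fit with both inhibitors pooled against mock was added after seeing the data.

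A minority of members passed the test with each inhibitor label. Of 144 tested, 16 were higher with DCMU at 22°C (1.44% of all genes), 10 with DBMIB at 22°C (0.557%), 19 with DCMU at 27°C (2.86%), and 18 with DBMIB at 27°C (2.85%). None was lower in edgeR, where 416, 224, 734, and 755 of the 20291 genes tested were. Lower at an unadjusted p under 0.05 were 6, 3, 4, and 5 members, and by DESeq2 1, 0, 2, and 2. Shares of all genes are not given here for the unadjusted p or for DESeq2. The medians were 0.57, 0.58, 0.48, and 0.51 on the log2 scale, beside 0.02 to 0.06 for all genes. With the inhibitors pooled 22 members were higher and 1 lower at 22°C (2.18% and 3.63% of all genes), and 23 and 2 at 27°C (4.52% and 6.60%).

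NIA1 at 22°C had 152.2 and 129.2 CPM untreated, 188 and 136 in mock, 1881 and 774 with DCMU, and 803 and 1306 with DBMIB (3.03 and 2.70, adjusted p = 0.0073 and 0.019). At 27°C it had 165 and 139 CPM in mock, 1467 and 944 with DCMU, and 1071 and 1047 with DBMIB (2.99 and 2.80). RVE2 at 22°C had 30.9 and 32.2 CPM in mock, 116 and 127 with DCMU, and 81.7 and 119 with DBMIB (1.94 and 1.67), and at 27°C 32.4 and 29.7, 102 and 139, and 140 and 119 (1.96 and 2.06). For both genes every inhibitor library lay above every mock and untreated library.

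BT2 at 27°C had 21.9 and 23.4 CPM in mock, 499 and 162 with DCMU, and 180 and 458 with DBMIB (3.87 and 3.81, adjusted p = 0.019 and 0.019). At 22°C it had 72.3 and 79.0 CPM in mock, 640 and 234 with DCMU, and 168 and 599 with DBMIB, without overlap, but the differences did not pass (adjusted p = 0.096 and 0.16). NDL1, an N-MYC downregulated-like protein, had 34.6 and 33.6 CPM in mock at 22°C and 139 to 154 in the 4 inhibitor libraries. UPM1 had 29.6 and 30.7 CPM in mock at 22°C, 268 and 96.1 with DCMU (2.59, adjusted p = 0.039), and 91.8 and 246 with DBMIB (adjusted p = 0.065). TOPP1 had 86.3 and 82.8 CPM in mock at 22°C and 156 to 229 with inhibitors.

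**Figure D5:**
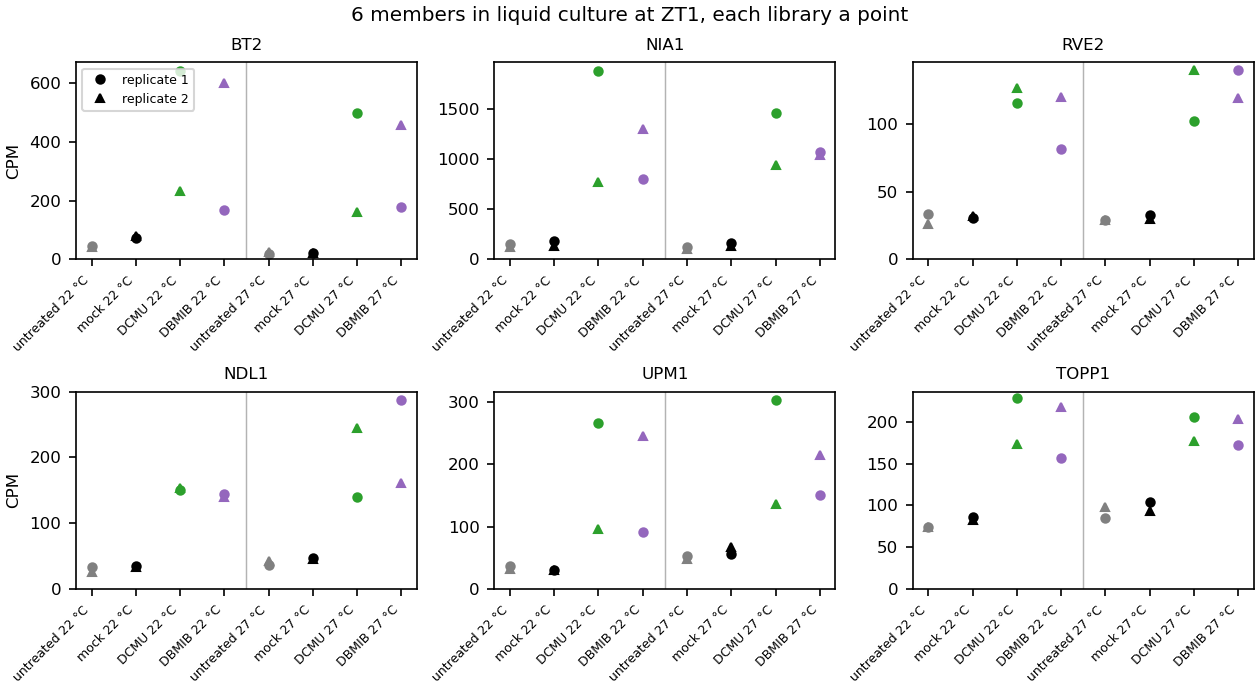
CPM of 6 members in liquid culture at ZT1 at 22°C and 27°C, untreated or given mock, DCMU, or DBMIB, with a circle for replicate 1 and a triangle for replicate 2. NIA1 at 22°C is at 188 and 136 CPM in mock and at 774 to 1881 with inhibitors, and for BT2 the replicates stand in opposite order under the DCMU and DBMIB labels.

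Not every strongly rhythmic member rose. BBX14 had 111 to 126 CPM in mock and 13.5 to 68.7 with inhibitors, a difference that did not pass for any label (adjusted p = 0.31 to 0.38). Lower in the pooled fit were AT1G30250, uncharacterized, at 22°C (2.12 and 1.82 CPM in mock, at most 0.171 with inhibitors), and at 27°C MIR850, a microRNA gene (15.2 and 20.8 against 1.84 to 8.47), and BBX15 (136 and 143 against 44.6 to 90.3). FRO2 and IRT1 were at 2.1 to 27.1 CPM in liquid media. With only mock and that inhibitor in the fit 0 members passed in each of the 4 comparisons. Leaving out a library left 0 to 11 members with DCMU at 22°C, 0 to 3 with DBMIB at 22°C, 3 to 18 and 3 to 13 at 27°C. In the pooled fit at 22°C 3 were left without either mock library, and at 27°C 7 without mock replicate 1 and 4 without replicate 2.

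Other genes of the pathways were read from lists that share 3 members, BT2, RVE2, and ELF3. At night in WT 23.8% of all genes were higher and 23.4% lower, and at ZT0 in pgm, ss3/ss4, and ss3/ss4/pgm 28.1%, 30.4%, and 30.6% were higher. Of 22 sugar starvation genes tested, 18 were higher and 1 lower at night in WT (median 1.28), 19 and 1 in ss4-1 (median 2.01, where 26.0% and 26.7% of all genes were called), and 9 had a larger night against light difference in ss4-1 (0.391% of all genes). All 22 were higher at ZT0 in pgm, ss3/ss4, and ss3/ss4/pgm, with medians of 3.31, 2.91, and 3.32. Clock genes split, with 11 higher and 14 lower of 31 at night in WT, and 18, 18, and 19 of 29 were higher at ZT0 in the mutants. Of 18 genes of the PIF growth module 6 were higher and 7 lower at night, of 16 of starch breakdown 4 and 8, of 11 of the cold response 2 and 7, and of 9 of gibberellin and brassinosteroid 3 and 3.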

How the data were processed

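RNA-seq values of 76 samples were used as deposited. Per the labels and methods, RNA came from pooled seedlings and stranded and other TruSeq kits were used, and which library had which kit, and whether counting used strand, is not given in the sources used here. FastQC, Trimmomatic, TopHat, Picard, and TAIR10 stand in the submitters' processing notes. The authors deposited raw counts per gene for 60 libraries and TPM for the 16 libraries at 22°C and 27°C, with the ZT16 columns headed ZT-8, a name read as the same hour. RefSeq TAIR10.1 gave gene names and upstream sequence and was not combined with the deposited coordinates.

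Counts were tested with edgeR 4.0.16 (R 4.3.3), using filterByExpr, TMM, and quasi-likelihood F-tests, in 3 fits of 32 libraries (WT and ss4-1 at 17°C), 16 (starch mutants), and 16 (liquid media). A call needed a Benjamini-Hochberg adjusted p, computed across every tested gene, under 0.05. CPM were scaled within a fit, so that WT values at ZT0 and ZT2 differ between fits. TPM were compared without a test. The fits were tested on simulated data. Members and lists were chosen with earlier results of these data known. Named members are the 10 largest ratios, members of a list, 2 on either side of the limit, and up to 3 rises and 3 falls per comparison past the threshold without overlap of replicates. Alternatives were DESeq2 1.42.0, no filter, only the groups compared, a replicate block, other reference times, and each library left out.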

Additional observations from a re-analysis of the deposited data

Results flagged for a closer look

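For 9 members the night against light difference differed between ss4-1 and WT by the edgeR test of that difference itself (adjusted p under 0.05, 0.788% of all genes). The values on the log2 scale, ss4-1 less WT, were 1.39 for BT2, 0.65 for BBX14, 0.74 for ACHT5, 0.60 for UVR3, 0.47 for AT2G07180, 0.89 for AT3G23880, 0.43 for TOPP1, and 0.43 for AT3G56680, each with a larger night against light difference in ss4-1. For AT5G66052 the value was −0.72, the smaller difference being in ss4-1. BT2 passed in 24 of 24 leave-outs of a library, AT2G07180 and AT3G56680 in 20, UVR3 in 18, TOPP1 in 6, and AT3G23880 in 3. Over the whole day course, a test of genotype by time called 5 members (BT2, ACHT5, BBX14, UVR3, and AT1G30820), 3.4% of those tested and 0.604% of all genes. That count was 10 by DESeq2, 47 with no filter on low counts, and 2 to 32 with a library left out (32 without WT ZT12 replicate 1).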

How the results depend on the processing

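Of 230 counts and shares of members recomputed under another setting, 186 stayed within 1.5 times the value given. Of 2584 values of named genes 2277 kept their call or their lack of one, 292 kept direction and lost the call, and 15 gained it. None changed direction with a call in either setting. A change of direction without a call in either setting was counted among the 2277. The causes of these moves were not tested. With DESeq2 the counts were 14 for the night against light difference between genotypes (9 in edgeR), 10 for genotype by time (5), 1 for ss4-1 against WT at ZT0 (0), 8 at ZT12 (4), and 5 at ZT16 (1), 25 for at least 1 time (15), 31 for DCMU (16) and 26 for DBMIB (10) at 22°C, 28 for DBMIB at 27°C (18), and 39 for pooled inhibitors at each temperature (23 and 25). With no filter on low counts they were 9 and 7 for lower at night in WT and ss4-1 (4 each), 23 for the difference between genotypes, 47 for genotype by time, 12 for falls from ZT16 to ZT−4 (4), 3 for rises from ZT−4 to ZT0 (1), for ss4-1 against WT 10 at ZT−4, 5 at ZT0, 4 at ZT1, 19 at ZT2, 29 at ZT4, 1 at ZT8, 38 at ZT12, and 18 at ZT16, and 69 for at least 1 time. With only the groups compared in the fit they were 44 rises and 16 falls from ZT16 to ZT−4 (19 and 4), 3 rises and 37 falls from ZT−4 to ZT0 (1 and 22), 9, 4, 0, and 17 for ss4-1 against WT at ZT0, ZT1, ZT12, and ZT16, 31 for at least 1 time, and 0 for each of the 4 inhibitor comparisons. Night against all 6 other times gave 1 lower in WT, 1 lower in ss4-1, and 0 for the difference between genotypes. DBMIB at 22°C had 10 members called alone and 23 with both inhibitors pooled.

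At 17°C replicate numbers did not pair the samples, as same-numbered groups had correlated deviations over 0.1 in 16 of 120 pairs (WT and ss4-1) and 2 of 28 (mutants). In liquid media the correlations ran from −0.86 to 0.86, with 11 of 28 over 0.1, so that the libraries of a number deviated together or in opposite directions, and not every pair was over 0.1. A replicate block gave 8 members for ss4-1 against WT at ZT12 (4 without it) and moved no other count by over 1.5 times.

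With a library left out the ranges were 117 to 122 higher and 2 to 4 lower at night in WT, 122 to 127 and 0 to 6 in ss4-1, 1 to 12 for the difference between genotypes, and 2 to 32 for genotype by time (32 without WT ZT12 replicate 1). They were 7 to 14 rises and 0 to 1 falls from ZT16 to ZT−4, 0 rises and 10 to 15 falls from ZT−4 to ZT0, and 0 to 1 rises and 91 to 93 falls from ZT0 to ZT2. For ss4-1 against WT they were 0 to 1 at ZT−4 and ZT16, 0 to 6 at ZT2, 0 to 16 at ZT4, and 0 to 58 at ZT12. For inhibitors they were 0 to 11 and 0 to 3 at 22°C, 3 to 18 and 3 to 13 at 27°C, and 3 to 22 and 4 to 28 pooled. In the mutants every count stayed within 1.5 times. The depth per library limits members such as AT4G34790, and the depth at 22°C and 27°C is unknown.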
